A study of Mus musculus with 40 samples.

Results

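RNA from the cervix of pregnant C57BL/6 mice was compared between animals that had received human chorionic gonadotropin (hCG) and animals that had received phosphate-buffered saline (PBS), both by the intraperitoneal route. All cervix columns of the count matrix were taken, 10 labelled hCG and 10 labelled PBS, which are 20 of the 40 samples of the series. Tissue was collected at 18.5 days post coitum, while neither the dose nor the time from injection to collection is stated by the labels. Since the sample numbers are not said to be animals, p-values measure the spread between these samples, part of which may be technical. The libraries were also divided by their column total into 10 deeper ones (over 14000000 counts) and 10 shallower ones, and the hCG response was read in each class. The deeper class holds hCG libraries 1 to 6 and PBS libraries 1 to 4. The shallower class holds hCG libraries 7, 9, 10 and R3 and PBS libraries 5 to 8, 10 and R3. The classes share no library.

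hCG is a glycoprotein hormone of the primate placenta that acts through the luteinizing hormone receptor, encoded by Lhcgr. The cervix is a collagen-rich stroma with some smooth muscle, covered in its lower part by a stratified squamous epithelium that thickens in pregnancy. Near term its matrix loosens, the epithelium turns over, and myeloid cells enter the tissue.

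Deeper libraries held 16613261 to 25028360 counts and shallower ones 6613775 to 11602678. The label of the tissue was matched by the 12 squamous markers, whose summed level ran from 1480 to 17200 CPM (counts scaled to the library total) with hCG and from 10400 to 66100 CPM with PBS, and by 9 smooth muscle markers at 762 to 18900 CPM. Several libraries stood apart. In PBS libraries 5 to 8, between 3.51% and 17.54% of all counts fell on Lars2, which charges mitochondrial leucine tRNA, against at most 0.122% in the other 16. Skeletal muscle markers summed to 9470 CPM in hCG 1, against at most 362 CPM in any other hCG and 405 CPM in any PBS library. Adipocyte markers reached 3450 CPM in hCG 3. Their sums in hCG 1, 5, 9 and 4 (2190, 1520, 695 and 610 CPM) also lay above the highest PBS value of 368 CPM. The remaining hCG libraries had at most 328 CPM. Urothelial markers reached 2660 CPM in hCG 5 and 800 CPM in hCG 3, against at most 378 CPM with PBS. The first principal component held 32.12% of the variance and placed hCG 5, hCG 3 and hCG 7 at one end and PBS 4 and PBS 7 at the other. Lhcgr itself did not pass the filter on low counts. It had reads in 4 hCG and 4 PBS libraries, at most at 0.398 CPM in hCG 7, where 3 counts are 0.259 CPM (0.12 to 0.454 CPM over all libraries).

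In edgeR's quasi-likelihood test on all 20 libraries, 1331 of 14932 tested genes differed between hCG and PBS at a Benjamini-Hochberg adjusted p under 0.05, which is 8.91%. Genes called higher with hCG numbered 708 (4.74%) and genes called lower 623 (4.17%), and 589 of the 1331 differed at least 2-fold. With upper-quartile in place of TMM scaling factors, 972 were higher and 475 lower. Lower genes included those of squamous epithelium, cholesterol synthesis, glycolysis, amino acid supply and tRNA charging. Higher genes included interferon-responsive genes, chemokines and their receptors, and genes of myeloid cells. The number past the threshold changed more than the fold changes did as libraries were left out. Leaving out hCG 3, PBS 4 or PBS 7 alone left 1 called gene, with 3733, 3554 and 3855 genes at an unadjusted p under 0.05 against 4362 in all 20 libraries. The median size of the log2 fold change over the 1331 genes was 0.92 with all libraries, between 0.84 and 0.99 without any 1 of them, and at least 1330 of the 1331 kept their direction each time. Since these genes were chosen on these libraries, this describes them and tests nothing. Leaving out PBS 5 to 8 together left 1 called gene, 4078 at an unadjusted p under 0.05 and a median size of 0.89. Leaving out hCG 1, 3 and 5 together left 0 in edgeR, 2846 at an unadjusted p under 0.05 and a median size of 0.67, with 1329 in the same direction.

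**Figure D1:**
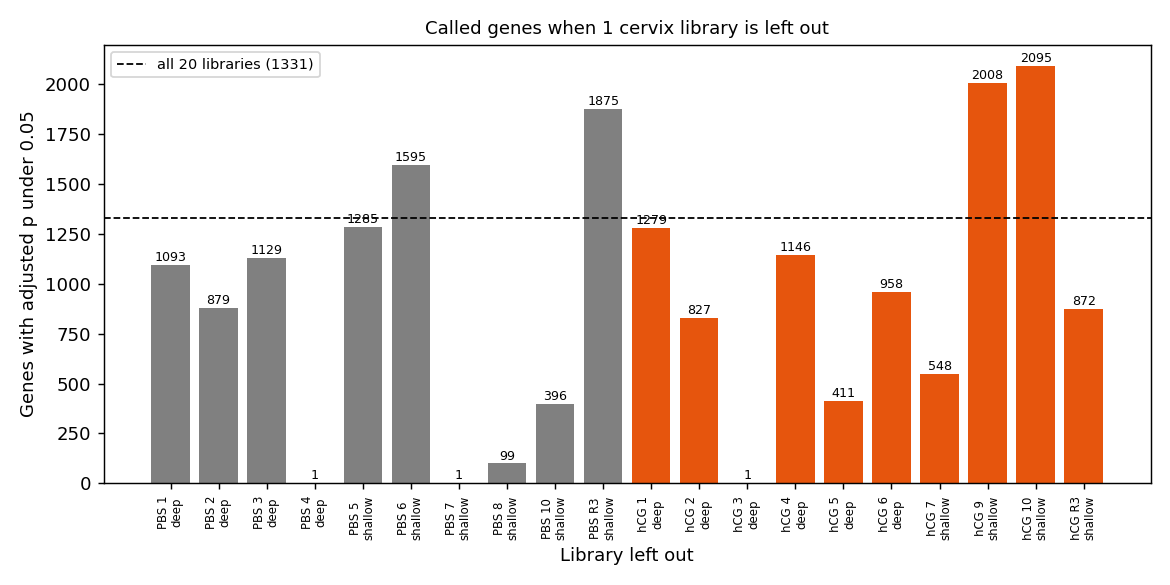
Number of genes with an edgeR adjusted p under 0.05 (y axis) when the library named on the x axis is left out of the fit of all cervix libraries, PBS in grey and hCG in orange. Bars range from 1 without PBS 4, PBS 7 or hCG 3 to 2095 without hCG 10, around the 1331 of all 20 libraries (dashed line).

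Within the deeper libraries alone 240 genes were called (1.61%), 98 higher and 142 lower with hCG, and 4255 (28.5%) had an unadjusted p under 0.05. Leaving out any 1 of hCG 2, 3, 4 and 6 or PBS 1 to 4 left between 0 and 31 called genes, while 2534 to 4362 genes stayed at an unadjusted p under 0.05, and DESeq2 called 2444. Over the 240 genes the median size of the log2 fold change was 1.26, and 1.08 to 1.35 without any 1 library. Within the shallower libraries edgeR called 0 genes (0%), and 803 (5.38%) had an unadjusted p under 0.05, while DESeq2 called 2. The median standard error of a log2 fold change was nearly equal, at 0.262 in deeper against 0.258 in shallower libraries. The differences themselves were smaller in the shallower class. There 176 genes were higher and 328 lower at least 2-fold, against 1561 and 746 in the deeper class, and the middle 50% of log2 fold changes lay between -0.20 and 0.20 against -0.31 and 0.47. The 3 hCG libraries with the highest marker sums of other tissues are all in the deeper class, and PBS 5 to 8 are all in the shallower class. Without hCG 1, 3 and 5 the deeper class had 682 genes higher and 792 lower at least 2-fold, and without PBS 5 to 8 the shallower class had 424 and 158. With depth class as a term in the fit of 20 libraries, 508 genes were called (3.40%), 198 higher and 310 lower. The test of the difference of the response between the classes called 0 genes in edgeR (0%), with 966 (6.47%) at an unadjusted p under 0.05, and 2 in DESeq2. Thinning every library to the total of the shallowest left 102 calls in the deeper class and 0 in the shallower class.

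The direction of change was shared more often than not. Of the 240 genes called in the deeper libraries, 207 (86.2%) differed in the same direction in the shallower ones, against 66.2% of all tested genes. Only 24 of the 240 (10%) also had an unadjusted p under 0.05 there with the same direction, against 4.92% of all tested genes. The 98 higher genes had a median log2 fold change of 1.39 in the deeper libraries, which chose them, and 0.34 in the shallower libraries, which did not. The 142 lower genes had medians of -1.12 and -0.32. Read the other way, 81 of the 14932 genes had an unadjusted p under 0.01 in the shallower libraries. This is fewer than that threshold would pass if no gene differed. Of the 81, 79 had the same direction in the deeper libraries, against 66.2% of all tested genes. With an unadjusted p under 0.05 there as well were 40 (49.4%), against 22.5% of all tested genes. Over all 14932 genes the log2 fold changes of the classes had a Pearson correlation of 0.498 and a Spearman correlation of 0.468. This is a description across genes, which share libraries within a class and are not independent replicates. It was 0.401 over the 3733 genes with the lowest expression and 0.531 to 0.557 over the other 3 sets of that size.

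The agreement was lower without hCG library 7, the deepest of the shallower hCG libraries. Without it, 152 of the 240 genes (63.3%) kept their direction, against 55.8% of all tested genes, the correlation was 0.267, and the median of the 98 higher genes in the shallower class was 0.07. Without hCG library 10 the share was 93.3%, against 71% of all tested genes, and the Pearson correlation 0.596. Leaving out PBS libraries 5 to 8 gave 93.3% of the 240, against 69.6% of all tested genes. The Pearson correlation was then 0.379 and the Spearman correlation 0.472.

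**Figure D2:**
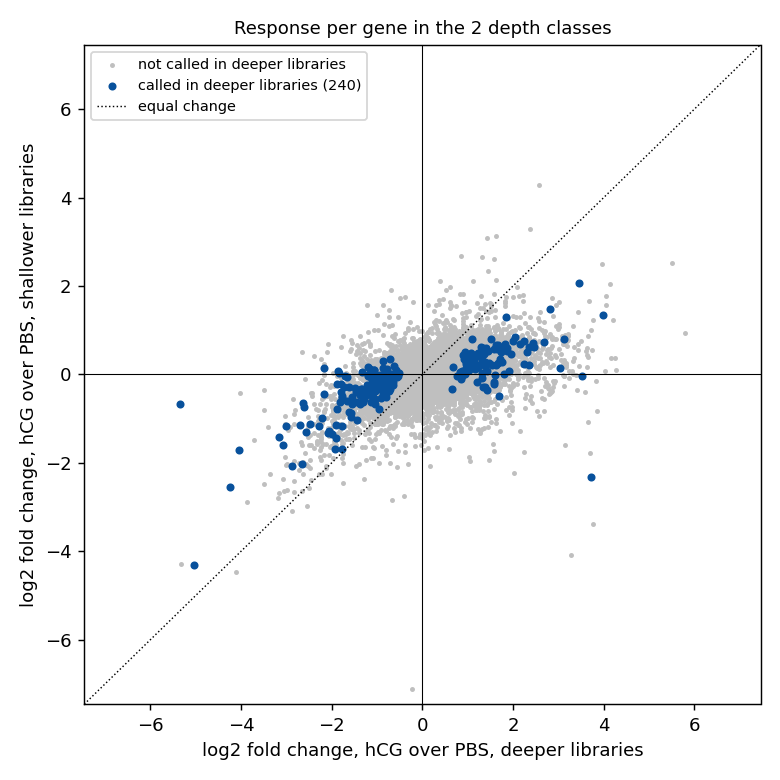
Log2 fold change of hCG over PBS in the 10 deeper libraries (x axis) against the 10 shallower libraries (y axis), 1 point per tested gene, with the 240 genes called in the deeper libraries in blue. Most blue points share the sign of both axes (207 of 240) but lie nearer to 0 on the y axis than the dotted line of equal change.

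Genes of the squamous epithelium were lower with hCG in both depth classes. Of 25 tested genes of squamous differentiation 7 fell and none rose, beside 4.17% of all tested genes called lower. The median log2 fold change was -1.92 in all libraries, -2.40 in the deeper class and -1.37 in the shallower class. The median of all tested genes was 0.0070. In the shallower class 13 of the 25 had an unadjusted p under 0.05, all lower, although none passed adjustment. The shallower median was -1.03 without hCG 7 and -0.69 without PBS libraries 5 to 8. Only PBS 10 and PBS R3 remained in the last reading, and PBS R3 had the lowest mean log2 level of these genes among the PBS libraries. In bulk tissue, fewer epithelial cells and less RNA per cell cannot be told apart. The basal keratin Krt5 ranged from 220 CPM in hCG 5 to 3123 CPM in hCG 10, with a median of 1300 CPM. With PBS it ranged from 2389 to 7234 CPM with a median of 3859 CPM, so that 8 of 10 hCG libraries lay below every PBS library. Krt16, a keratin of activated keratinocytes, had medians of 30.3 CPM with hCG and 502 CPM with PBS, with overlapping ranges of 0.343 to 244 CPM and 29.1 to 7420 CPM.

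Krt84, a hair-type keratin, was the only tested gene for which every hCG library lay below every PBS library. It ranged from 0 to 1.33 CPM with hCG (median 0.816) and from 1.48 to 8.68 CPM with PBS (median 4.17). Its log2 fold change was -2.57 (SE 0.47, edgeR adjusted p = 0.0263), with -2.66 in deeper and -2.63 in shallower libraries, where its unadjusted p was the smallest of all tested genes (0.000254, edgeR adjusted p = 0.805). Groups without overlap were seen for 4 genes in all (0.0268% of those tested), namely Krt84, the myeloid receptor gene Clec7a, the immune receptor gene Pilrb1 and the predicted gene Gm5796. Pilrb1 and Gm5796 were named after their values were seen. Krt84 lies on chromosome 15 from 101525026 to 101532820 (GRCm38.p6).

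Junction genes and epithelial regulators were also lower. Of 30 genes of junctions and hemidesmosomes 13 fell and 1 rose, beside 4.17% and 4.74% of all tested genes. Their medians were -0.79 (deeper) and -0.66 (shallower libraries), the latter -0.32 without PBS libraries 5 to 8. Lama3, a laminin chain of the basement membrane, fell by 1.10 on the log2 scale (SE 0.253), and 3 of 10 hCG libraries lay below every PBS library. The shallower median of 21 epithelial transcription factors was -0.63, and -0.15 without PBS libraries 5 to 8. Of these factors 5 fell, among them Klf4, which promotes keratinocyte differentiation, from a median of 445 to 211 CPM, and Grhl3, a barrier gene regulator, from 88.4 to 38.4 CPM. The 1 that rose was Gata3, which is also expressed in urothelium. Gata3 reached 57.6 CPM in hCG 5, the library with the highest urothelial marker sum, against a median of 3.38 CPM over the hCG libraries and 2.11 CPM over the PBS libraries. Krt6b fell by 2.98 on the log2 scale and Dsc1, a desmosomal cadherin of the upper layers, by 4.09, each with overlapping groups.

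Genes of cholesterol synthesis formed the list with the largest share of calls among the process lists. Of 25 tested members 16 fell and none rose, beside 4.17% of all tested genes called lower. All 25 were below 0 in the deeper libraries, with a median log2 fold change of -1.42. In the shallower libraries 23 of 25 were below 0, with a median of -0.58, and 3 of them reached an unadjusted p under 0.05. The exceptions were Ebp and Tm7sf2, which encode late enzymes of the pathway and differed by 0.11 and 0.06 there. The median in the shallower class was -0.36 without hCG 7 and -0.64 without PBS libraries 5 to 8, and that in the deeper class was -1.56 without hCG 1, 3 and 5. Dhcr7, which catalyses the last step to cholesterol, ranged from 11 to 42.9 CPM with hCG (median 19.4) and from 31.6 to 100 CPM with PBS (median 53.3). Its 6 deeper hCG libraries, at 11 to 33.8 CPM, all lay below the 4 deeper PBS libraries, at 36.7 to 78.3 CPM, while the shallower libraries overlapped. In the deeper class 1631 tested genes (10.9%) had no overlap between hCG and PBS, and in the shallower class 96 (0.643%). Srebf2, which encodes the transcription factor that drives these genes, had a log2 fold change of -0.99 (SE 0.224, edgeR adjusted p = 0.0275), and 8 of 10 hCG libraries lay below every PBS library. Sqle, the squalene epoxidase gene, fell by 1.28 (SE 0.306). The squamous marker sum moved with this list, with medians of 6640 CPM in hCG and 22500 CPM in PBS libraries, and its part in the cholesterol result was not tested.

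Metabolic and translation genes were lower in smaller steps. Beside the counts given here, 4.17% of all tested genes were called lower. Of 20 cytosolic tRNA synthetases, which load tRNAs with amino acids, 8 fell and none rose, with medians of -0.57 (deeper) and -0.23 (shallower libraries) and the same direction in 19 of 20. Cars, Aars and Yars, for cysteine, alanine and tyrosine, fell by 0.85, 0.68 and 0.50 on the log2 scale. Of 23 genes of the amino acid response 7 fell, with medians of -0.86 and -0.27. They included the cationic and large neutral amino acid transporters Slc7a1 (log2 -0.91, SE 0.196) and Slc7a5 (log2 -0.89, SE 0.23), the nutrient sensor Sesn2 (log2 -0.79) and the regulator of the response, Atf4, whose median was 126 CPM with hCG and 194 CPM with PBS. Glycolysis had 8 of 19 members lower, with medians of -0.90 and -0.31. Its enzymes Hk2, Eno1 and Pgam1 fell by 1.03, 0.97 and 0.77 on the log2 scale. The squamous score moved with these lists in some libraries: in PBS 4, with the highest squamous score of all libraries (3.01), the glycolysis, amino acid response and tRNA synthetase scores were 1.14, 0.82 and 0.60, each also the highest. In hCG 1 the squamous score was 1.19, but those of glycolysis and tRNA synthetases were 0.12 and -0.09. The squamous (-4.54) and amino acid response (-0.56) scores were lowest in hCG 5. Glycolysis was lowest in hCG 7 (-0.89) and tRNA synthetases in hCG 3 (-0.605). The part of the squamous markers in these results was not tested.

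Of 31 translation initiation factors 6 fell, beside 4.17% of all tested genes called lower. The list had medians of -0.435 (deeper) and -0.105 (shallower), so its difference was smaller in the shallower class. The direction was shared by 23 of the 31, beside 66.2% of all tested genes. Eif3b, a core subunit of eIF3, had a level of 61.3 to 99.9 CPM with hCG and 95.9 to 190 CPM with PBS, and 9 of 10 hCG libraries lay below all PBS libraries. Its log2 fold change was nearly the same in both depth classes, at -0.58 and -0.67. Uck2, which encodes a pyrimidine salvage kinase, behaved alike, at 15.1 to 22.9 CPM with hCG and 22 to 53.9 CPM with PBS (log2 -0.85, SE 0.16, edgeR adjusted p = 0.0263). The groups shared only the interval between 22 and 22.9 CPM.

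Cytosolic ribosomal protein genes differed in direction between the classes. All 45 tested members were below 0 in the deeper libraries (median -0.44) and above 0 in the shallower ones (median 0.16), under TMM, RLE and upper-quartile factors alike. No member passed the test of the difference, in which 10 of the 45 had an unadjusted p under 0.05 (lowest edgeR adjusted p = 0.676). The shallower median ranged from 0.03 to 0.31 as each library was left out, and it was -0.16 without PBS libraries 5 to 8, those with the high share of Lars2. The shallower median thus lay on the other side of 0 without those 4 libraries, where PBS 10 and PBS R3 were the only PBS libraries left.

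**Figure D3:**
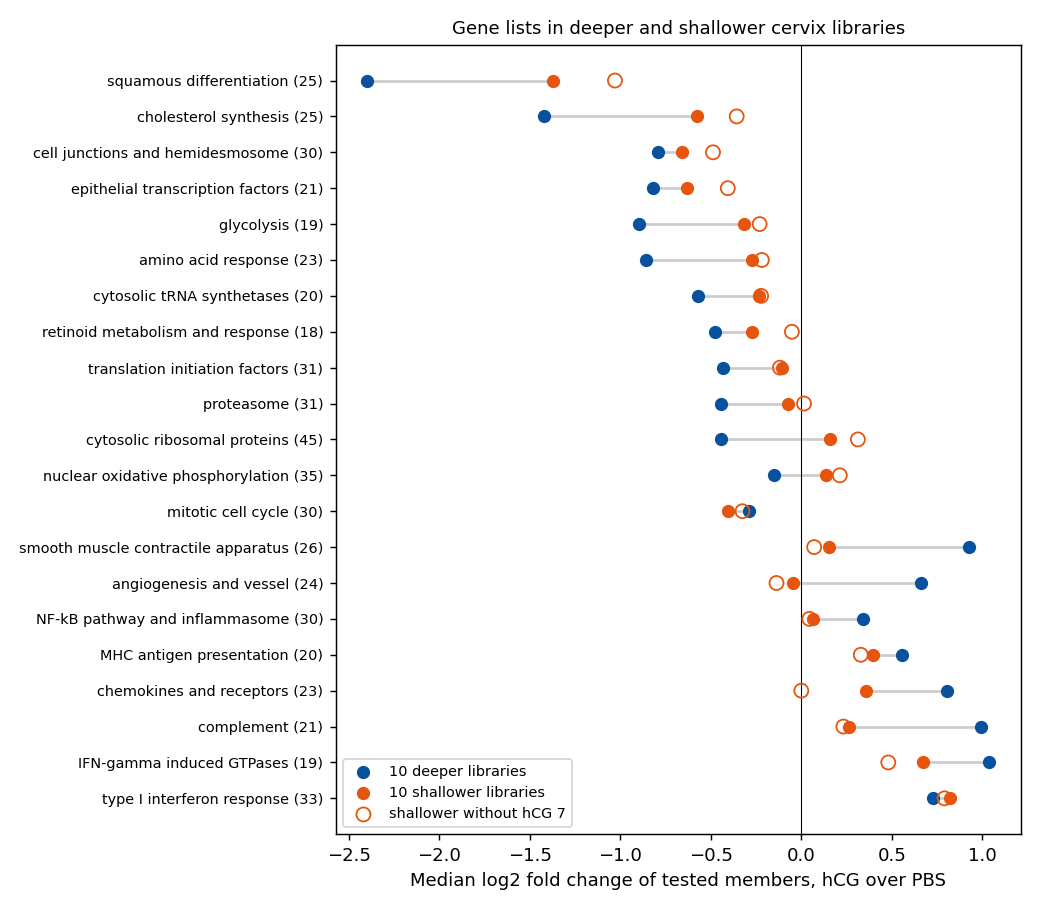
Median log2 fold change of hCG over PBS (x axis) over the tested members of each list (y axis, number of members in brackets) in the deeper libraries (blue), the shallower libraries (orange) and the shallower libraries without hCG 7 (open circles). Epithelial and cholesterol lists lie below 0 in each reading, the interferon lists above 0, and ribosomal protein genes lie on opposite sides (-0.44 and 0.16).

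Interferon-responsive genes were higher with hCG, and those of the type I response had a median difference of similar size in both depth classes. Type I interferon induces antiviral genes through the factor complex ISGF3, and interferon gamma induces a set of GTPases and chemokines. Of 33 genes of the type I response 8 rose and none fell, beside 4.74% of all tested genes called higher. Their medians were 0.73 (deeper) and 0.82 (shallower libraries). In the shallower class 21 of 33 had an unadjusted p under 0.05, all higher, beside 5.38% of all tested genes. In the deeper class 6 of 33 did, a smaller share than the 28.5% of all tested genes there. Of 19 interferon gamma genes 11 rose and none fell, with medians of 1.04 and 0.67. Without hCG R3 the shallower medians were 0.45 and 0.31, and without PBS libraries 5 to 8 they were 0.87 and 0.35.

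Short promoter stretches of called members that hold the core of the interferon-stimulated response element are shown because these genes rose together. The core was searched as GAAANNGAA on both strands of the 250 bases before each RefSeq start (GRCm38.p6), and the capitals mark it or its reverse complement. It was present for 12 of 23 type I members and 10 of 13 interferon gamma members with a listed promoter, called or not, against 7.48% of 11719 tested genes. Among called members it was present for 3 of 6 and 7 of 9. The share was 12.8% of 561 genes called higher and 6.0% of 483 called lower. As the lists were made of interferon-responsive genes, their shares describe the lists and test nothing about hCG. A match describes letters and shows no binding.
Trim30a, chr7:104465209-104465238, minus strand: gttctttagtTTCTTTTTCtcagttcctgc
Ifit3, chr19:34583417-34583446, plus strand: tactttcctcTTCCCTTTCacaaacactga
Rsad2, chr12:26456552-26456581, minus strand: tggtccaactTTCATTTTCagaaaacagaa
Cxcl10, chr5:92349083-92349112, minus strand: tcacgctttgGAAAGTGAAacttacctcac
Igtp, chr11:58199512-58199541, plus strand: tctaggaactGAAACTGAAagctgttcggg
Tgtp1, chr11:48992304-48992333, minus strand: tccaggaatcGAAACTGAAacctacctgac
The core of the sterol regulatory element, searched as TCACNCCAC in the same way, was found for 1 of 17 cholesterol synthesis members, Hmgcs1, and for 1.27% of tested genes. It is shown as the only match among the genes that fell in that list.
Hmgcs1, chr13:119690204-119690233, plus strand: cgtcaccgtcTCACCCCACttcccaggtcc

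Ifit2, an inhibitor of viral translation, had a median of 32.8 CPM with hCG (9.75 to 59.9) and 9.74 CPM with PBS (6.31 to 19.5), and 7 of 10 hCG libraries lay above every PBS library. Its log2 fold change was 1.56 (SE 0.295, edgeR adjusted p = 0.0263), with 1.52 in deeper and 1.55 in shallower libraries. The shallower hCG libraries were not uniform, since hCG 9 and hCG 10 lay within the PBS range and hCG 7 and R3 above it. Cxcl10, a chemokine that attracts T cells, was low in both groups, at a median of 2 CPM with hCG and 0.385 CPM with PBS, and rose by 2.78 on the log2 scale (SE 0.559). The GTPase genes Ifi47 and Iigp1 rose by 1.48 (SE 0.318) and 1.25 (SE 0.266). Cmpk2, a mitochondrial kinase gene, had a median of 11 CPM with hCG and 2.58 CPM with PBS and reached 10.5 CPM in PBS 2. Ifi27l2a rose by 1.95 (SE 0.352), more in the deeper libraries (2.44) than in the shallower ones (0.72).

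Genes of myeloid cells and chemokine receptors were higher with hCG, by more in the deeper than in the shallower libraries for most of those named here, although no difference between the classes passed adjustment. Clec7a, the beta-glucan receptor of macrophages and neutrophils, ranged from 4.17 to 32.3 CPM with hCG (median 17.9) and from 0.614 to 3.85 CPM with PBS (median 3.09). All 10 hCG libraries lay above all PBS libraries, the deeper ones at 11 to 32.3 CPM and the shallower ones at 4.17 to 15.9 CPM. Its log2 fold change was 2.47 (SE 0.366, edgeR adjusted p = 0.015), the smallest adjusted p of all tested genes, with 2.82 (deeper) and 1.47 (shallower) by class. Clec7a lies on chromosome 6 from 129461591 to 129472785 (GRCm38.p6). Il1b, the interleukin 1 beta gene, had deeper hCG values of 2.36 to 63.3 CPM against 1.24 to 2.99 CPM with PBS, and shallower values of 0.813 to 11.8 CPM against 1.22 to 2.92 CPM. The chemokine receptor gene Cxcr4, 1 of the 10.9% of genes with no overlap in the deeper class, stood there at 3.26 to 16.9 CPM against 1.11 to 1.28 CPM, and overlapped in the shallower class, at 0.584 to 3.27 CPM against 0.659 to 2.19 CPM. Its difference between the classes was 2.33 on the log2 scale (unadjusted p = 0.0016, edgeR adjusted p = 0.676).

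Of 23 chemokines and receptors 8 rose and none fell, with medians of 0.80 (deeper) and 0.36 (shallower libraries), and the latter was 0.0003 without hCG 7. Ccrl2, which presents the chemoattractant chemerin, rose by 1.14 (SE 0.224), and 9 of 10 hCG libraries lay above every PBS library. Ccr1, a receptor of inflammatory chemokines, rose by 1.61 (SE 0.397). S100a9, a calcium-binding protein gene of neutrophils, had a median of 17.6 CPM with hCG and 0.685 CPM with PBS, with hCG values from 0.468 to 96.1 CPM. Plek and Lilr4b, genes of platelets and myeloid cells, rose by 1.5 and 2.15 (SE 0.306 and 0.376), and the counting of Lilr4b can be split with a near-identical neighbour. Neutrophil markers were called higher for 4 of 7 tested and none lower, and macrophage markers for 4 of 15, beside 4.74% of all tested genes. The neutrophil marker Il1r2, not called, had a log2 fold change of -0.61. The neutrophil median was 1.92 (deeper), and 1.55 without hCG 1, 3 and 5. In the shallower class it was 0.34, and 0.695 without PBS 5 to 8. The macrophage median was 0.845 (deeper), and 0.39 without hCG 1, 3 and 5. In the shallower class it was 0.31, 0.09 without hCG 7 and -0.01 without PBS 5 to 8. The summed neutrophil markers overlapped, at 27.5 to 508 CPM with hCG and 164 to 334 CPM with PBS.

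**Figure D4:**
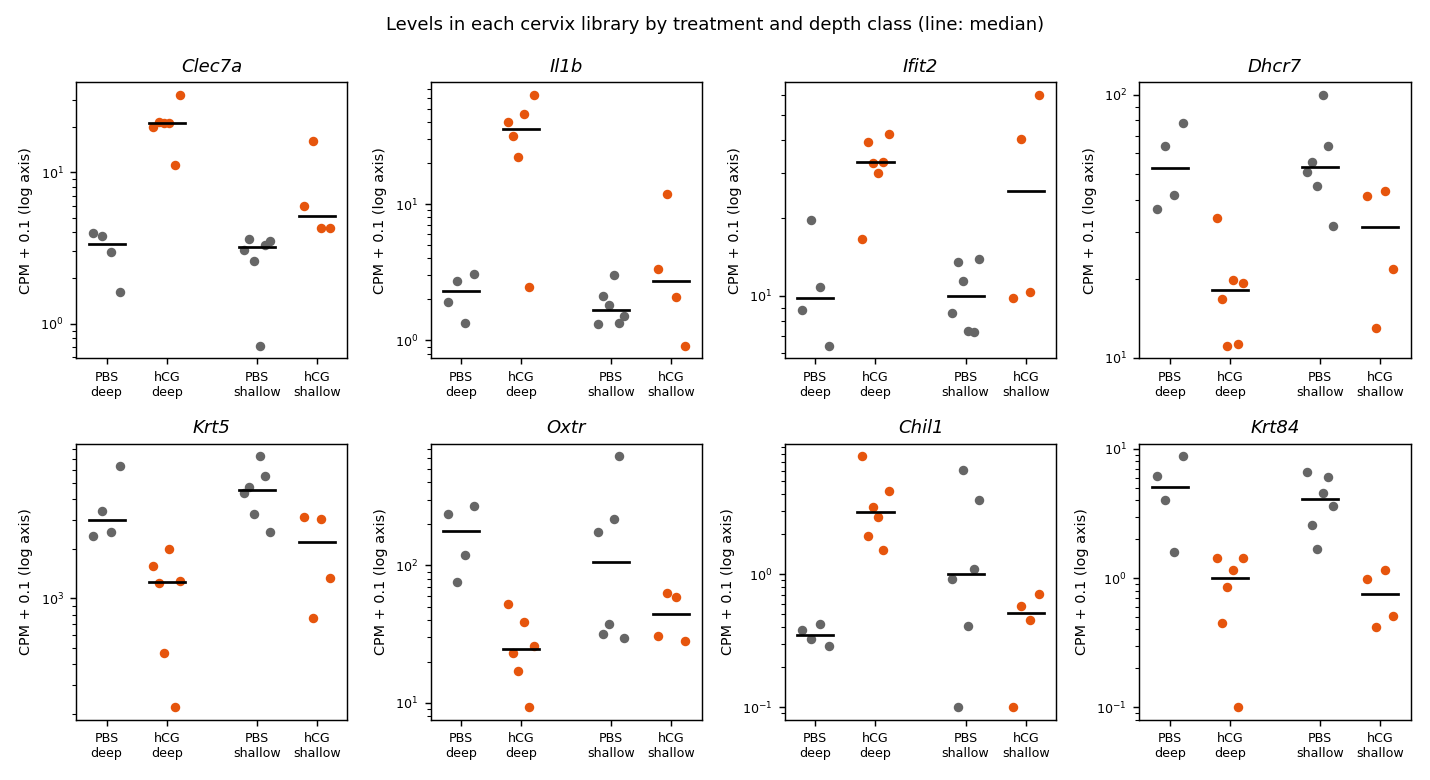
Levels of 8 genes as CPM plus 0.1 on a log axis, 1 point per cervix library, separated by treatment (grey PBS, orange hCG) and depth class, with the median as a line. Clec7a and Krt84 separate the treatments in both classes, Krt84 at few counts in several hCG libraries. Chil1 is higher with hCG in the deeper class and overlaps between treatments in the shallower class.

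Genes of matrix turnover and contraction changed in both directions. Of 28 matrix proteases and inhibitors 4 rose and 3 fell, beside 4.74% and 4.17% of all tested genes. Adamts4, an aggrecanase, fell by 1.71 (SE 0.328, edgeR adjusted p = 0.0263), with hCG values of 5.17 to 25.4 CPM and PBS values of 16.3 to 78.2 CPM. Adamts5, another aggrecanase, rose by 1.16 (SE 0.286), and Plat, the tissue plasminogen activator gene, by 1.10 (SE 0.252). Of 25 contraction and prostaglandin genes 6 rose and 3 fell. Oxtr, the oxytocin receptor gene, had a median of 29.3 CPM with hCG (9.21 to 62.8) and 147 CPM with PBS (29.3 to 619). The deeper libraries, at 9.21 to 52.4 and 74.9 to 271 CPM, did not overlap, as for 10.9% of tested genes, whereas 3 of the 6 shallower PBS libraries lay within the hCG range. Slco2a1, the prostaglandin uptake transporter gene, fell by 1.13 (SE 0.253), and 9 of 10 hCG libraries lay below every PBS library. Edn1, the endothelin 1 gene, rose by 1.06 (SE 0.261).

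Retinoid genes changed in both directions. Of 18 tested members 5 fell and 4 rose, beside 4.17% and 4.74% of all tested genes. The direction was the same in both classes for 17 of the 18, beside 66.2% of all tested genes. Lrat, which makes retinyl ester stores, had hCG values of 4.67 to 40.5 CPM and PBS values of 39.6 to 134 CPM, and 9 of 10 hCG libraries lay below all PBS libraries. Aldh1a2, which makes retinoic acid, and Cyp26b1, which degrades it, fell by 1.44 (SE 0.353) and 2.51 (SE 0.506). Without hCG 1, 3 and 5 their log2 fold changes were -1.42 and -2.33. Aldh1a1 and Rbp4 were called higher (log2 1.70 and 1.66), and stood at 0.52 and 0.42 without those libraries. In the Wnt pathway 5 of 28 members fell, among them the ligands Wnt4, with medians of 26.6 CPM with hCG and 45.3 CPM with PBS, and Wnt10a (log2 -1.21), and 2 rose, near the 4.74% of all tested genes, among them the Wnt inhibitor Sfrp2 (log2 1.03). Cdkn1a, the cell cycle inhibitor p21, fell by 1.82 (SE 0.363). None of 30 mitotic genes was called, and their median was -0.28.

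The smallest p-values for a difference between the depth classes belonged to Chil1, Klrb1b, Utf1, Rom1, Csf2rb and Fgd3, each at an edgeR adjusted p of 0.676. Chil1, a chitinase-like gene of neutrophils and epithelia, stood at 1.41 to 7.59 CPM with hCG against 0.19 to 0.32 CPM with PBS in the deeper libraries. In the shallower libraries it stood at 0 to 0.61 CPM with hCG against 0 to 5.93 CPM with PBS, so that the groups overlapped. There 3 counts are 0.259 to 0.454 CPM, and in the deeper libraries 0.12 to 0.181 CPM, so several of these values rest on few counts. The difference of the log2 fold changes was 6.03 (SE 1.29, unadjusted p = 0.000153). Rom1, a photoreceptor membrane protein gene, was at 4.93 to 10.3 CPM with hCG and 29.2 to 47.9 CPM with PBS in the deeper libraries, and at 6.53 to 42.7 and 14 to 48.2 CPM in the shallower ones. None of these differences passed adjustment.

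Some large fold changes came from few libraries. Upk3a, a urothelial plaque protein gene, was called higher (log2 5.19, SE 1.4) with equal medians of 1.28 CPM in both groups and 419 CPM in hCG 5. Actn3 and Mybpc2, genes of fast skeletal muscle, reached 230 and 186 CPM in hCG 1, with medians of 1.40 and 1.78 CPM over the hCG libraries. Lars2 was called lower (log2 -6.50, SE 1.41), and its difference was 0.03 without PBS libraries 5 to 8. Of 8 urothelial markers 5 were called higher, and their median log2 fold change was 3.61 in the deeper libraries and -1.04 there without hCG 1, 3 and 5. Adipocyte markers had 2 of 10 members called higher, with a deeper median of 2.90 that was 0.07 without those 3 libraries.

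The immune and stromal lists given here held at most 2 called members each, all higher, beside 4.74% of all tested genes called higher. Complement genes, which opsonise and lyse targets, had 2 of 21 members higher and medians of 0.995 in deeper and 0.26 in shallower libraries, and the deeper median was 0.23 without hCG 1, 3 and 5. The shallower median was 0.10 without PBS 7 and -0.26 without PBS libraries 5 to 8. Antigen presentation genes had 2 of 20 members higher, with medians of 0.56 and 0.39, the latter -0.04 without PBS libraries 5 to 8. The smooth muscle contractile apparatus had 1 of 26 members higher, with a deeper median of 0.92 that was 0.27 without hCG 1, 3 and 5. Fibrillar matrix and crosslinking genes had 2 of 40 members higher, and genes of hyaluronan and proteoglycans none of 12. The highest marker sums of skeletal muscle, adipocytes and urothelium were those of these 3 hCG libraries, 1 each, and their part in these differences was not tested.

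**Figure D5:**
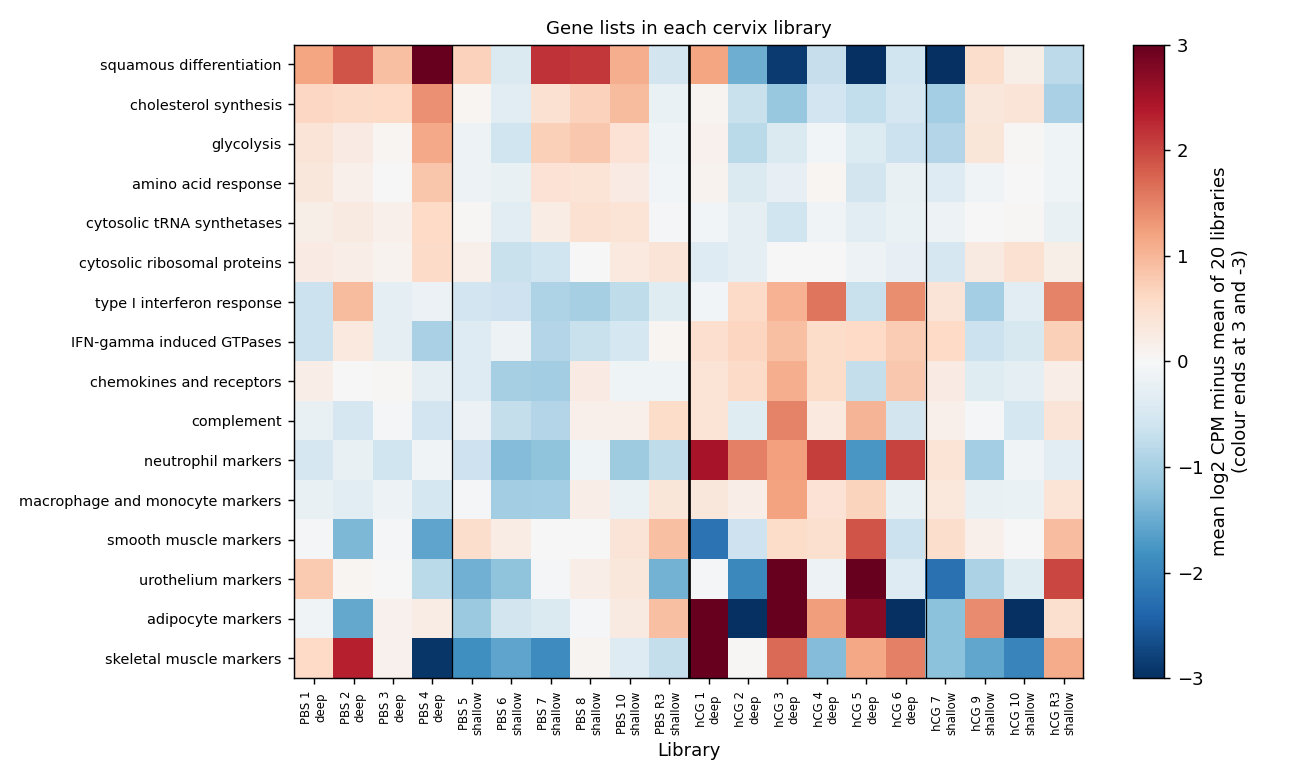
Mean log2 CPM of the tested members of each list (rows) in each cervix library (columns), minus its mean over all 20 libraries, red above and blue below, with lines separating treatments and depth classes. The squamous score is lowest in hCG 5, hCG 7 and hCG 3 (-4.54, -3.02 and -2.87), and the type I interferon score is highest in hCG 4, hCG R3 and hCG 6 (1.61, 1.49 and 1.40) and is also raised in PBS 2 (0.96).

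The scores varied within each treatment. For squamous differentiation hCG 1, 9 and 10 lay at 1.19, 0.53 and 0.17, above PBS 6 and PBS R3 at -0.44 and -0.54. For the type I interferon response hCG 5 lay at -0.68, within the PBS range, and hCG 9 at -1.02, the lowest of all 20 libraries. The 3 libraries with the lowest squamous scores were not the 3 with the highest interferon scores.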

How the data were processed

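RNA of 20 cervix samples was analysed from the table of raw counts per gene that the authors deposited. Per the labels' protocols, libraries were strand-specific and made from total RNA. TopHat2 and GRCm38 (mm10) were used, per the submitters' processing notes, and no source states the counting tool or the strand it used, so reads of overlapping or antisense genes cannot be told apart. Of 23079 identifiers 23008 matched RefSeq names (GRCm38.p6), and the other 71 held 0.149% of the cervix counts and were kept. No column lacked a sample.

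Genes kept by filterByExpr over the 20 libraries were tested with edgeR 4.0.16 (quasi-likelihood F-test, TMM factors, robust dispersion, Benjamini-Hochberg adjustment) in R 4.3.3, in 5 fits that used the same 14932 genes: all libraries, the deeper, the shallower, depth class as a term, and the interaction of depth class and treatment. The fits were tested on simulated data. The SE was obtained as the size of the log2 fold change over the root of F. Levels are CPM after TMM scaling, a list's score is the mean log2 CPM with a prior count of 2, and intervals of 3 counts cover counting error only. Within a treatment the smallest chi-square per gene between libraries was 10.36, so none was counted as a duplicate.

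The members, the gene lists and the genes to name were chosen with earlier results of these data known. Named were, among others, up to 8 genes each way with the smallest p with depth class as a term, up to 6 each way with the largest fold change and a mean log2 CPM not under 3, the smallest p in each depth class and for their difference, up to 3 called members of each process list, the called and highest markers, and a short panel. The rule left out predicted genes. Pilrb1, the predicted gene Gm5796, Ebp, Tm7sf2, Atf4 and, apart from Cxcl10, the genes of the promoter stretches fall outside this rule and were chosen after their values were seen. Alternatives were DESeq2 1.42.0, limma 3.58.1 voom, 2 surrogate variables (sva 3.50.0), other factors, filters and thresholds, thinning, the label number as a block, and libraries left out.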

Additional observations from a re-analysis of the deposited data

Results flagged for a closer look

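In 190 groups of 10 libraries (95 genes, 2 treatments), 13 values lay far from the others by Dixon's criterion on the scale of log2(CPM + 1). Chance flags about 1 in 20 groups, so most of these could be chance. Skeletal muscle genes stood out in hCG 1, where Actn3 stood at 230 CPM against a group median of 1.40 CPM and Mybpc2 at 186 CPM against 1.78 CPM. The same genes were high in PBS 2, Actn3 at 7.68 CPM and Mybpc2 at 6.07 CPM, against medians of 0.834 and 0.827 CPM. PBS 2 also stood out for interferon-responsive genes, with Ifit3 at 83.2 CPM against a median of 11.4 CPM, Rsad2 at 34.1 against 5.12 CPM and Cmpk2 at 10.5 against 2.58 CPM. PBS R3 had the highest Ifi27l2a among the PBS libraries, at 26.3 CPM against 11.9 CPM. Dsc1 was at 12.9 CPM in hCG 1 against a median of 1.26 CPM. Grhl3 was low in hCG 7, at 9.72 CPM against 38.4 CPM. Slc7a5 and Lrat were low in hCG 5, at 9.21 and 4.67 CPM against medians of 33.4 and 31.9 CPM. Utf1, a gene of pluripotent cells, stood at 3.39 CPM in hCG 9 against a median of 0.0989 CPM, and it was among the genes with the smallest p for a difference between depth classes.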

How the results depend on the processing

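The count of called genes in all 20 libraries (1331) ranged from 1 to 2095 as each library was left out, and the libraries that moved it by over 1.5 times were PBS 4, PBS 7 and hCG 3 (1 gene left with any 1 of them omitted), PBS 8 (99), PBS 10 (396), hCG 5 (411), hCG 7 (548), hCG 2 (827), R3 of hCG (872), PBS 2 (879), hCG 9 (2008) and hCG 10 (2095). It was 2891 at an adjusted p under 0.1, 2283 in DESeq2, 3353 in a fit of all 40 libraries, 0 with 2 surrogate variables (3593 at an unadjusted p under 0.05), 0 without hCG 1, 3 and 5, 1 without PBS 5 to 8 and 0 without both sets, a combination chosen after seeing the data. In the deeper libraries (240) it ranged from 0 to 295 with 1 library left out and was 157 with upper-quartile factors, 1923 at an adjusted p under 0.1, 34 without a filter on low counts, 102 after thinning, 63 without hCG 1, 3 and 5 and 2444 in DESeq2. In the shallower libraries and for the difference between classes it was 0 with each library left out and 2 each in DESeq2. With depth class as a term (508) it ranged from 0 to 1464 and was 2190 at an adjusted p under 0.1, 16 without a filter, 166 after thinning, 2022 in DESeq2 and 0 without hCG 1, 3 and 5 or without PBS 5 to 8. The share of deeper calls with the same direction in shallower libraries (86.2%) ranged from 63.3% to 93.3% with 1 library left out (17 fits, as 3 had no deeper call), and was 93.3% without PBS 5 to 8 and 92.1% without both sets. Over all tested genes the share (66.2%) ranged from 55.8% without hCG 7 to 71.9% without PBS 6. It was 69.6% without PBS 5 to 8 and 72.5% without both sets. Among the named genes called in all 20 libraries, fold changes turned for Actn3 (-0.55 without hCG 1, 3 and 5, -0.96 without both sets and from -0.17 without hCG 1 to 4.92 without PBS 2 as each library was left out), Lars2 (0.035 without PBS 5 to 8 and 0.41 without both sets), Upk2 (-0.094 without both sets and -0.32 with 2 surrogate variables), P2rx1 (-0.053) and Upk1b (-0.080, both with 2 surrogate variables). With the label number as a replicate block, 1184 genes were called. Same-numbered libraries correlated by -0.06 to 0.32 in their deviations from the treatment means, above 0.1 for 5 of 9 numbers. The same number gave the highest correlation for 2 of 9. These values cannot decide whether the numbers pair the samples, which the labels do not say. The causes were not tested. In the shallower libraries 3 counts stand for up to 0.454 CPM, which limits what was detectable for low genes.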
